A study of Mus musculus with 68 samples.

Results

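The ICM of fertilized mouse blastocysts was compared between embryos injected with a morpholino against Mcrs1 (Mcrs1 MO) and embryos injected with a control morpholino (control MO). The members are 4 of the 68 libraries of the series, chosen by their labels: 2 libraries of Mcrs1 MO ICM and 2 of control MO ICM. Zygotes from C57BL/6j females mated with C57BL/6j males were injected, grown to blastocysts and separated into ICM and trophectoderm (TE) by micromanipulation, and 10 blastomeres were pooled for each polyadenylated RNA library made by Smart-seq2. A morpholino is a synthetic antisense oligonucleotide that blocks the translation or the splicing of its target RNA, and the control MO was a random oligonucleotide of the same kind. The 4 control libraries (2 ICM and 2 TE) carry both the words control and untreated in their labels. For the sequenced embryos the Mcrs1 MO was injected at a lower concentration than the control MO, so the dose and the target cannot be told apart. Matching TE libraries of both groups and ICM and TE libraries of embryos injected with a morpholino against Max, 12 libraries in all, served to estimate the spread. With 2 libraries per group from pools of few cells, fewer cells of one type and less RNA per cell cannot be told apart, and p-values measure only the spread between these libraries.

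MCRS1 (microspherule protein 1) is a forkhead-associated domain protein of the nucleolus and of chromatin. It is a subunit of the NSL complex, in which KAT8 acetylates histone H4 at active promoters, and of the INO80 nucleosome remodelling complex. It also binds spindle microtubules near the chromosomes and takes part in the signalling of amino acids to mTORC1. The ICM gives rise to the epiblast, which holds the pluripotency genes, and to the primitive endoderm, which is set apart by GATA6 first and by SOX17 and GATA4 later. The TE surrounds the ICM and forms the placenta.

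Levels are given as TPM, the abundance per transcript length and library that the authors' assembler estimated, so that genes can be compared per length. The aligned sequence per library, taken as coverage divided by FPKM, was 1.81 and 2.32 gigabases in the control MO ICM and 2.91 and 2.68 gigabases in the Mcrs1 MO ICM. Several whole-library measures moved with the groups. Rn45s, the precursor of ribosomal RNA, was listed at 7809 to 13013 TPM in the 4 control libraries of both lineages and at 168 to 630 TPM in the 8 libraries of the other morpholinos. Annotated genes held 85.5% to 90.3% of the TPM in the controls and 93.6% to 94.4% in the others. Xist, the RNA that coats the inactive X chromosome, was at 12.3 to 46.5 TPM in the controls and 1.18 to 6.54 TPM in the others, and Eif2s3y, a Y-linked translation factor gene, at 27.7 to 47.4 TPM against 95.8 to 152 TPM. The control libraries therefore stood apart from all others beyond the targeted gene, and the part of library preparation or of the embryos' sexes in the results below was not tested.

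The 2 control MO ICM libraries did not hold the same cells by their markers. The summed level of 8 TE markers was 19677 TPM in control replicate 1 and 820 TPM in control replicate 2, beside 25289 and 23562 TPM in the control TE libraries and 15847 and 10881 TPM in ICM with Mcrs1 MO libraries. The TE transcription factor gene Cdx2 was at 57.7 and 0.222 TPM in the 2 control ICM libraries, at 68.3 and 54.6 TPM in the control TE and at 28.6 and 17.1 TPM in ICM with Mcrs1 MO. The keratin gene Krt18 was at 10274 and 108 TPM in the control ICM, and at 6021 and 3701 TPM in ICM with Mcrs1 MO. Control replicate 1 and both Mcrs1 MO libraries thus carried abundant TE transcripts, against their label, while control replicate 2 held far less, and the part of this in each result was tested only by leaving a control library out. The summed level of 8 epiblast markers was 1762 and 2348 TPM in the control ICM and 562 and 679 TPM in the control TE. It was 838 and 1366 TPM in ICM with Mcrs1 MO, beside 1012 and 1142 TPM in TE with Mcrs1 MO, so Mcrs1 MO ICM replicate 1 lay below both TE libraries of its group. Pearson's r of log2(TPM + 1) was 0.910 between the 2 control ICM libraries and 0.972 between the 2 Mcrs1 MO libraries. The list counts below are therefore given also without control replicate 1 and without control replicate 2, fits that rest on a single control library whose spread is taken from the other groups.

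**Figure D1:**
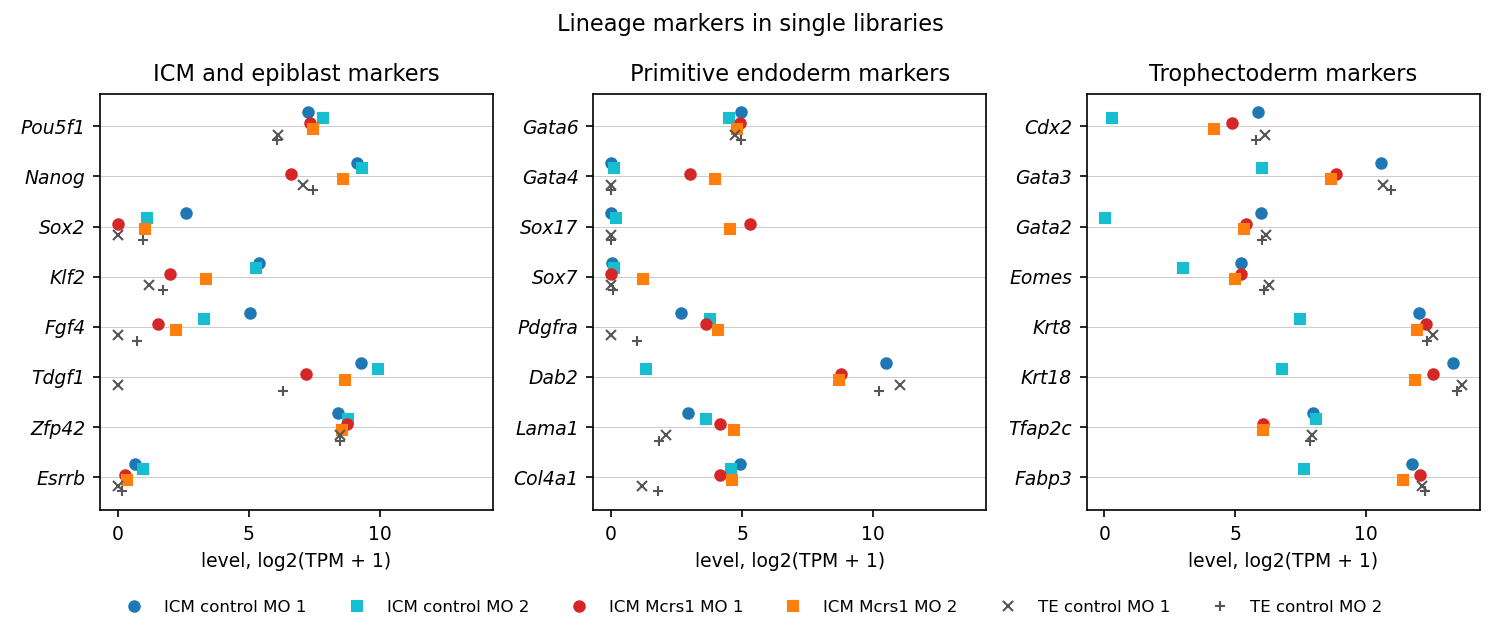
Levels, as log2(TPM + 1), of 8 markers each of epiblast, primitive endoderm and TE in single libraries: circles and squares are the 2 control MO (blue) and the 2 Mcrs1 MO (red, orange) ICM libraries, and crosses the 2 control TE libraries. Control ICM replicate 2 (light blue squares) lies below the other libraries on every TE marker but Tfap2c, and Gata4 and Sox17 lie near 0 in all plotted libraries but those of Mcrs1 MO.

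Mcrs1 itself (chr15:99242817-99251961, mm10) was at 253 and 310 TPM in ICM with control MO and at 86.8 and 73.4 TPM in ICM with Mcrs1 MO. Both Mcrs1 MO libraries lay below both controls, and the difference was −1.80 ± 0.21 (log2(TPM + 1) ± SE, adjusted p = 0.0033 in limma). It was −1.94 without control replicate 1 and −1.65 without control replicate 2. In the TE, Mcrs1 was at 219 and 294 TPM with control MO and at 41.1 and 45.5 TPM with Mcrs1 MO, and in the Max MO ICM it was at 218 and 242 TPM. The RNA of the targeted gene was thus lower in the libraries labelled Mcrs1 MO than in all others.

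A gene was called when its adjusted p was under 0.05 and its change at least 2-fold. Of 11219 genes tested, 547 were higher and 584 lower in the Mcrs1 MO ICM, that is 4.88% and 5.21% of the genes, or 10.1% in all. The count rested on the spread shared with the other 8 libraries: a fit of the 6 ICM libraries alone called 1 gene and a fit of the 4 libraries called none, with 2383 and 1962 genes at an unadjusted p under 0.05, against 3284 in the fit of all 12. With control replicate 1 left out, 1324 genes (11.8%) were higher and 1157 (10.3%) lower, 22.1% in all. With control replicate 2 left out, 700 (6.24%) were higher and 636 (5.67%) lower, 11.9% in all. Leaving out Mcrs1 MO replicate 1 reduced the calls to 87, or 0.775% (0.526% higher and 0.25% lower), and leaving out replicate 2 to 243, or 2.17% (1.13% higher and 1.03% lower). Of the 1131 calls, 518 held in the same direction both without control replicate 1 and without control replicate 2, 269 of them higher and 249 lower.

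The differences followed transcript length. In the shortest quartile of the genes, up to 1938 bases, the median difference was 0.41 on the log2 scale, 10.3% of the genes were higher and 2.08% lower. In the longest quartile, from 4462 bases, the median was −0.51, 1.71% were higher and 9.42% lower. With a smooth trend on length removed, 361 of 10791 genes with a known length (3.35%) were higher and 277 (2.57%) lower, 5.91% in all, and 529 of the calls held. Lists of short or of long genes share this trend, so list counts with it removed are given beside the main ones.

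**Figure D2:**
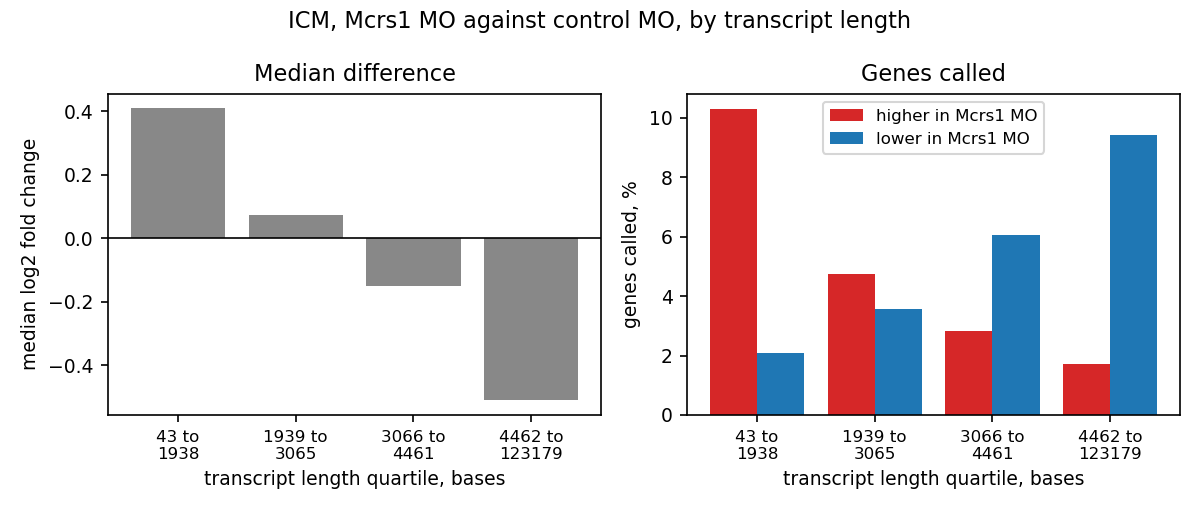
Difference between Mcrs1 MO and control MO in the ICM by quartile of transcript length (bases, horizontal axis): left, the median log2 fold change; right, the share of genes called higher (red) and lower (blue). The median goes from 0.41 in the shortest quartile to −0.51 in the longest.

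Of 44 listed genes of the primitive endoderm 37 could be tested, and 10 of them rose in the Mcrs1 MO ICM, none fell and 27 did not pass, beside 4.88% of all genes that rose. The median difference of the 37 was 1.15, against −0.05 over all genes. The summed level of the list was not higher, at 3113 and 3029 TPM in the controls and 2296 and 2930 TPM after Mcrs1 MO. The controls differed from each other on this list. In control replicate 1, 15 of the 37 genes were at least 5 times higher, beside 1850 of all 11219 genes tested. In control replicate 2, 9 were, a direction not counted over all genes. Genes at 0 in both controls, such as Dkk1 and Foxq1, enter both counts. The counts were 17 and 3 without control replicate 1, and 8 and 1 without control replicate 2. Without either Mcrs1 MO library in turn 3 rose and none fell, and after quantile normalization 5 rose. With the length trend removed 6 rose and none fell, and the median was 1.68. After Max MO, set against the same controls, 8 of the 37 rose and 3 fell (median 1.09), beside 8.65% and 15.1% of all genes. Gata4, Sox17, Apom, Srgn, Dkk1, Cited1, Pga5 and Cst3 were called both after Max MO and after Mcrs1 MO. The 7 listed genes that were not tested, Sox7, Foxa1, Fst, Rspo3, Bmp2, Stra6 and Thbd, were below the minimum mean level of 1 TPM.

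The transcription factor genes Sox17, Gata4 and Foxq1 stood out among them. Other factor genes of the list were too low to test. Foxa1 was at 4.30 and 0.222 TPM in the controls and 0 and 0.474 TPM after Mcrs1 MO. Sox7 was at 0.028 and 0.069 TPM against 0 and 1.33 TPM. Sox17 (chr1:4490928-4497354), which drives the endoderm programme, was at 0 and 0.133 TPM in ICM with control MO and at 38.2 and 22.5 TPM in ICM with Mcrs1 MO, a difference of 4.83 ± 1.26 (adjusted p = 0.035). Gata4 (chr14:63198915-63245260) was at 0 and 0.081 TPM in the controls and at 6.99 and 14.7 TPM after Mcrs1 MO (3.43 ± 0.83, adjusted p = 0.027). Foxq1, a forkhead factor gene, was listed at 0 in both controls and at 4.78 and 4.03 TPM after Mcrs1 MO (adjusted p = 0.044). For all 3 genes the groups did not overlap, and both control libraries, which differ in TE transcripts, were at or near 0. Gata6, the factor that comes first, was at 30.5 and 21.8 TPM in the controls and 29.6 and 26.9 TPM after Mcrs1 MO, so the groups overlapped and the difference was 0.12 ± 0.30 (adjusted p = 0.82).

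Secreted and surface products of this lineage rose with them. Dkk1 (chr19:30545885-30549496), which encodes a Wnt antagonist, was listed at 0 in both controls and at 32.7 and 44.5 TPM after Mcrs1 MO (adjusted p = 0.0083). Srgn, the gene of the granule proteoglycan serglycin, was at 1.69 and 0 TPM in the controls and 41.6 and 92.6 TPM after Mcrs1 MO (5.27 ± 0.75, adjusted p = 0.0046). Neither gene was high in TE: Srgn was at 0 in all 4 TE libraries of the 2 groups, and Dkk1 was at 0.572 and 0 TPM in the control TE and 8.69 and 1.42 TPM in TE with Mcrs1 MO. Amn, the membrane anchor of the cubilin receptor, was at 0.184 and 0 TPM in the controls and 2.71 and 31.03 TPM after Mcrs1 MO (adjusted p = 0.037), a wide spread within the group. Apom and Pga5 (an apolipoprotein and a pepsinogen gene) rose by 3.10 ± 0.78 and 2.51 ± 0.65. Cited1, a transcriptional coactivator gene, was at 0 and 1.46 TPM in the controls and 17.9 and 8.49 TPM after Mcrs1 MO (3.09 ± 0.58), and Cst3, the protease inhibitor cystatin C, rose from 125 and 132 TPM to 271 and 281 TPM. Of these 10 genes, Amn, Apom, Pga5 and Cst3 lost the call with the length trend removed, and Sox17, Foxq1, Amn, Apom and Pga5 lost it without control replicate 2 (adjusted p from 0.057 to 0.081).

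The receptors and matrix genes of the same list did not move as a block. Pdgfra, the receptor that marks primitive endoderm precursors, was at 5.29 and 12.9 TPM in the controls and 11.4 and 15.9 TPM after Mcrs1 MO (0.63 ± 1.10, adjusted p = 0.74). The laminin gene Lama1 was at 6.62 and 11.5 TPM against 17.1 and 24.8 TPM (1.15 ± 0.55, adjusted p = 0.19), and the collagen IV gene Col4a1 at 29.0 and 23.0 TPM against 16.9 and 23.4 TPM (−0.36 ± 0.50). Sparc, a matrix protein gene, was at 52.2 and 110 TPM against 178 and 227 TPM and missed the threshold (1.40 ± 0.43, adjusted p = 0.057). Fgfr1 and Nid1 had lower values after Mcrs1 MO, −1.46 ± 0.50 and −1.51 ± 0.50, which were not called (adjusted p = 0.080 and 0.070). Dab2, Tmprss2, Krt19 and Ctsh, which TE shares, differed widely between the 2 controls and were not called, and Dab2 was at 1438 TPM in control replicate 1 and 1.49 TPM in control replicate 2, with 434 and 416 TPM after Mcrs1 MO.

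**Figure D3:**
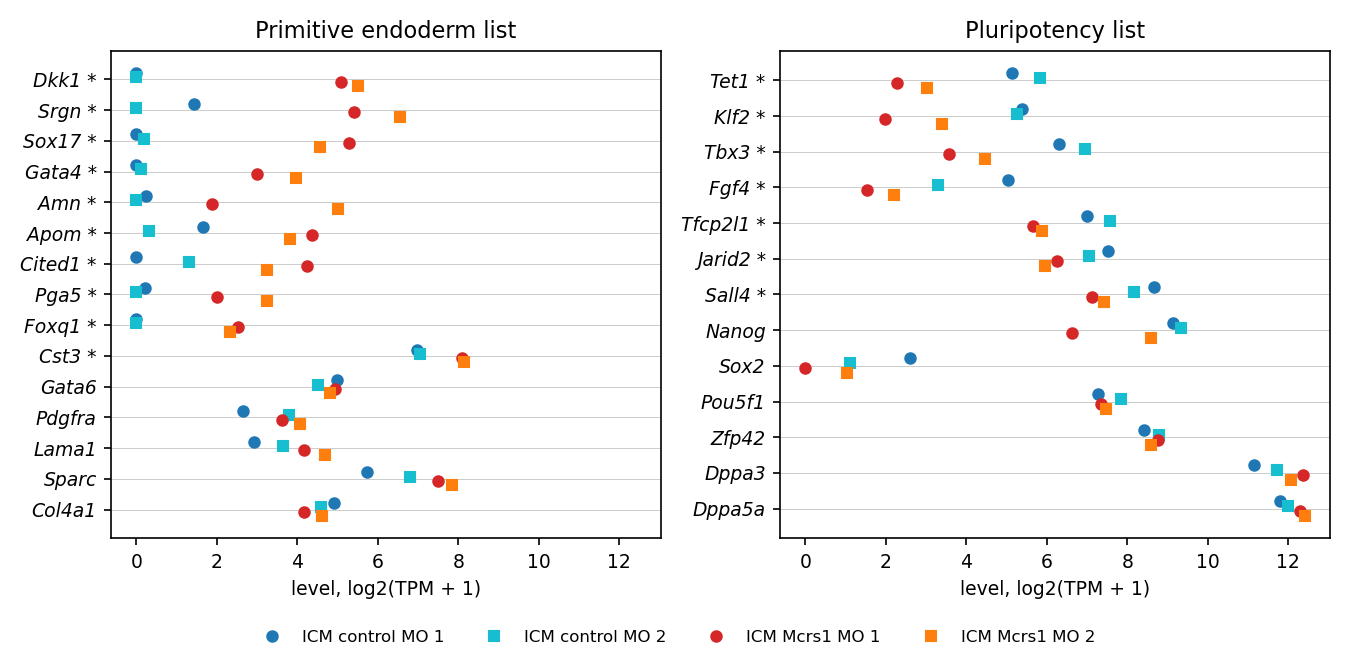
Levels, as log2(TPM + 1), of genes of the primitive endoderm list (left) and the pluripotency list (right) in the 2 control MO (blue) and the 2 Mcrs1 MO (red, orange) ICM libraries, with an asterisk at genes that were called. Sox17, Gata4, Dkk1 and Foxq1 are at or near 0 in both controls, and Klf2, Tet1 and Tbx3 are lower in both Mcrs1 MO libraries, while Gata6 and Zfp42 overlap.

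Of 36 tested genes of the naive and core pluripotency network 7 fell and none rose, beside 5.21% of all genes that fell. The median difference was −0.85, and 8 of the 36 had positive differences, up to 1.86. Without control replicate 1, 9 fell and none rose, and without control replicate 2, 7 fell and 1 rose. None was called without Mcrs1 MO replicate 1, and 5 fell without replicate 2. With the length trend removed only Klf2 and Tbx3 stayed called, and the median was −0.53. After Max MO, set against the same controls, 7 of the 36 fell and 4 rose (median −0.18), beside 15.1% and 8.65% of all genes. Tet1, Tbx3, Tfcp2l1, Jarid2 and Sall4 were called both after Max MO and after Mcrs1 MO. Klf2 (chr8:72319062-72321654), a Kruppel-like factor of the naive state, was at 40.9 and 37.3 TPM in the controls and 2.93 and 9.44 TPM after Mcrs1 MO (−2.64 ± 0.59, adjusted p = 0.020). Tbx3, a T-box factor gene, was at 77.7 and 123 TPM in the controls and 10.9 and 21.2 TPM after Mcrs1 MO (−2.61 ± 0.43, adjusted p = 0.0074). In 19 of the 36 genes, the 7 called ones among them, both Mcrs1 MO libraries were below both controls, beside 26.4% of all genes. In 5 of the 36 both were above, beside 23.3% of all genes.

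Tet1 (chr10:62804570-62880014), which oxidises methylated cytosine, was at 34.2 and 56.2 TPM in the controls and 3.84 and 7.16 TPM after Mcrs1 MO (−2.84 ± 0.53, adjusted p = 0.011). Its transcript is 14369 bases long, and with the length trend removed the difference was −1.89 (adjusted p = 0.053). Fgf4, the epiblast ligand that acts on primitive endoderm precursors, was at 32.0 and 8.89 TPM in the controls and 1.88 and 3.64 TPM after Mcrs1 MO (−2.30 ± 0.66, adjusted p = 0.045), and without control replicate 1 its adjusted p was 0.12. Tfcp2l1, Jarid2 and Sall4 fell by 1.51, 1.19 and 1.15 on the log2 scale.

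The defining genes Pou5f1, Nanog and Sox2 were not called. Pou5f1, which encodes OCT4, was at 153 and 230 TPM in the controls and 161 and 176 TPM after Mcrs1 MO (−0.16 ± 0.23, adjusted p = 0.69). Nanog was at 561 and 639 TPM in the controls and 96.9 and 383 TPM after Mcrs1 MO (−1.63 ± 0.50, adjusted p = 0.057), with no overlap but a wide gap between the 2 Mcrs1 MO libraries. Sox2 was low throughout, at 5.12 and 1.1604 TPM against 0 and 1.04 TPM. Zfp42, Dppa2 and Dppa4, abundant genes of the same state, differed by 0.07, −0.03 and −0.14. Dppa3, a maternal and germline factor gene, and Dppa5a had higher values after Mcrs1 MO, 0.79 ± 0.26 and 0.46 ± 0.15, that were not called (adjusted p = 0.074 and 0.066). Nodal was listed at 0 in all 4 libraries, and Esrrb and Lefty2 were also too low to test.

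The TE list could not be read apart from the control libraries. Of its 36 tested genes, 22 were at least 5 times higher in control replicate 1 than in control replicate 2, beside 1850 of all 11219 genes tested. In 16 of the 36 both Mcrs1 MO libraries fell between the 2 controls. In the fit of all libraries 2 rose and 2 fell (5.56% each, beside 4.88% and 5.21% of all genes). With the length trend removed 1 rose and 2 fell. Without control replicate 1, 20 rose and 3 fell, and without control replicate 2, 1 rose and 4 fell, so the median difference went from 1.99 to −0.38. The TE factor gene Gata3 was at 1509 and 63.7 TPM in the controls and 457 and 400 TPM after Mcrs1 MO. Cdx2, Krt8, Krt18 and Eomes were not called either (adjusted p from 0.15 to 0.48).

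Tfap2c fell in all of these fits. Tfap2c, an AP-2 factor gene of TE and ICM, was at 249 and 268 TPM in the controls and at 65.6 and 66.2 TPM after Mcrs1 MO (−1.95 ± 0.25, adjusted p = 0.0038), and it was −2.01 and −1.90 without control replicate 1 and 2. In ICM with Max MO Tfap2c was at 52.2 and 75.2 TPM. In TE it was at 240 and 230 TPM with control MO, 83.7 and 60.9 TPM with Mcrs1 MO and 61.6 and 80.3 TPM with Max MO. Tfap2c was thus higher in the controls than in all other morpholino libraries. It was also called after Max MO in the ICM and after Mcrs1 MO in the TE. Ptges (a prostaglandin synthase gene) and Sct (secretin) rose by 1.76 ± 0.44 and 2.33 ± 0.57.

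Of 10 tested NSL genes, partners of MCRS1 in that complex, 2 fell and none rose (median −0.66), beside 5.21% of all genes that fell, and all 10 had negative differences. In 4 of the 10 both Mcrs1 MO libraries lay below both controls, beside 26.4% of all genes. Ogt, the O-GlcNAc transferase gene, was at 82.1 and 153 TPM in the controls and 26.7 and 41.1 TPM after Mcrs1 MO (−1.73 ± 0.37, adjusted p = 0.018), and Hcfc1, whose product OGT cleaves, was at 23.7 and 50.4 TPM against 10.1 and 6.83 TPM (−1.93 ± 0.45, adjusted p = 0.023). Kat8, the acetyltransferase gene, was at 42.4 and 35.5 TPM against 36.3 and 30.9 TPM, and its difference of −0.21 ± 0.35 was not called. Of 14 tested INO80 genes 2 fell and none rose (median −0.27), so 14.3% fell, beside 5.21% of all genes. The ATPase gene Ino80 was at 23.2 and 12.7 TPM in the controls and 2.41 and 3.44 TPM after Mcrs1 MO (−2.23 ± 0.60, adjusted p = 0.037), and Ino80d fell by 2.09 on the log2 scale, while the shared helicases Ruvbl1 and Ruvbl2 differed by 0.07 and 0.01. The median transcript length of the NSL genes was 5024 bases, and no gene of either complex was called with the length trend removed. Without control replicate 1, 3 NSL and 2 INO80 genes fell, without control replicate 2, 1 and 1, and without either Mcrs1 MO library none. After Max MO, set against the same controls, 4 NSL genes fell (median −1.51) and 3 INO80 genes, beside 15.1% of all genes.

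The polycistronic microRNA cluster of Mir17hg fell as a whole. It was noticed after the values were seen, since the rule for naming genes left out microRNA loci, and its host RNA is transcribed as 1 long precursor from which 6 hairpins are cut. The mature microRNAs below are shown because they are what the cluster encodes; the libraries hold polyadenylated RNA, so the levels at the hairpins are those of the precursor and not of mature microRNAs. They are from RefSeq (GRCm38.p6), in order along the plus strand of chromosome 14, with the seed (bases 2 to 8) in capitals.
mmu-miR-17-5p: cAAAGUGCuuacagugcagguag
mmu-miR-18a-5p: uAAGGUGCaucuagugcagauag
mmu-miR-19a-3p: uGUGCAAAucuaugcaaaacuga
mmu-miR-20a-5p: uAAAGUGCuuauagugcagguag
mmu-miR-19b-3p: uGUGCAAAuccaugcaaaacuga
mmu-miR-92a-3p: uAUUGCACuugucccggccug
By seed, miR-17 and miR-20a form 1 pair, miR-19a and miR-19b another, and miR-18a and miR-92a each stand alone.

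Mir17hg (chr14:115044390-115046728 in the files) was at 58.2 and 34.2 TPM in ICM with control MO and at 5.61 and 5.46 TPM in ICM with Mcrs1 MO (−2.80 ± 0.50, adjusted p = 0.0099). The hairpin of Mir17 (chr14:115043671-115043754) was at 30.8 and 22.0 TPM in the controls and listed at 0 in both Mcrs1 MO libraries (adjusted p = 0.0030). Mir20a, with the same seed, was at 39.0 and 28.0 TPM in the controls and 0 and 1.75 TPM after Mcrs1 MO. The hairpins Mir18, Mir19a, Mir19b-1 and Mir92-1 were at 24.3 to 33.8 TPM in the controls and at 0 to 4.01 TPM after Mcrs1 MO, all with adjusted p of at most 0.017. No hairpin overlapped between the groups. The fall of Mir17hg held without control replicate 1 (−2.43), without control replicate 2 (−3.18) and with the length trend removed (−2.67, adjusted p = 0.017). The cluster was lower in the control TE to begin with, where Mir17hg was at 9.62 and 12.3 TPM, with 3.47 and 5.04 TPM in TE with Mcrs1 MO (−1.20, adjusted p = 0.17). The hairpins lie next to each other and to the host gene and can share reads, so they count as 1 observation.

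**Figure D4:**
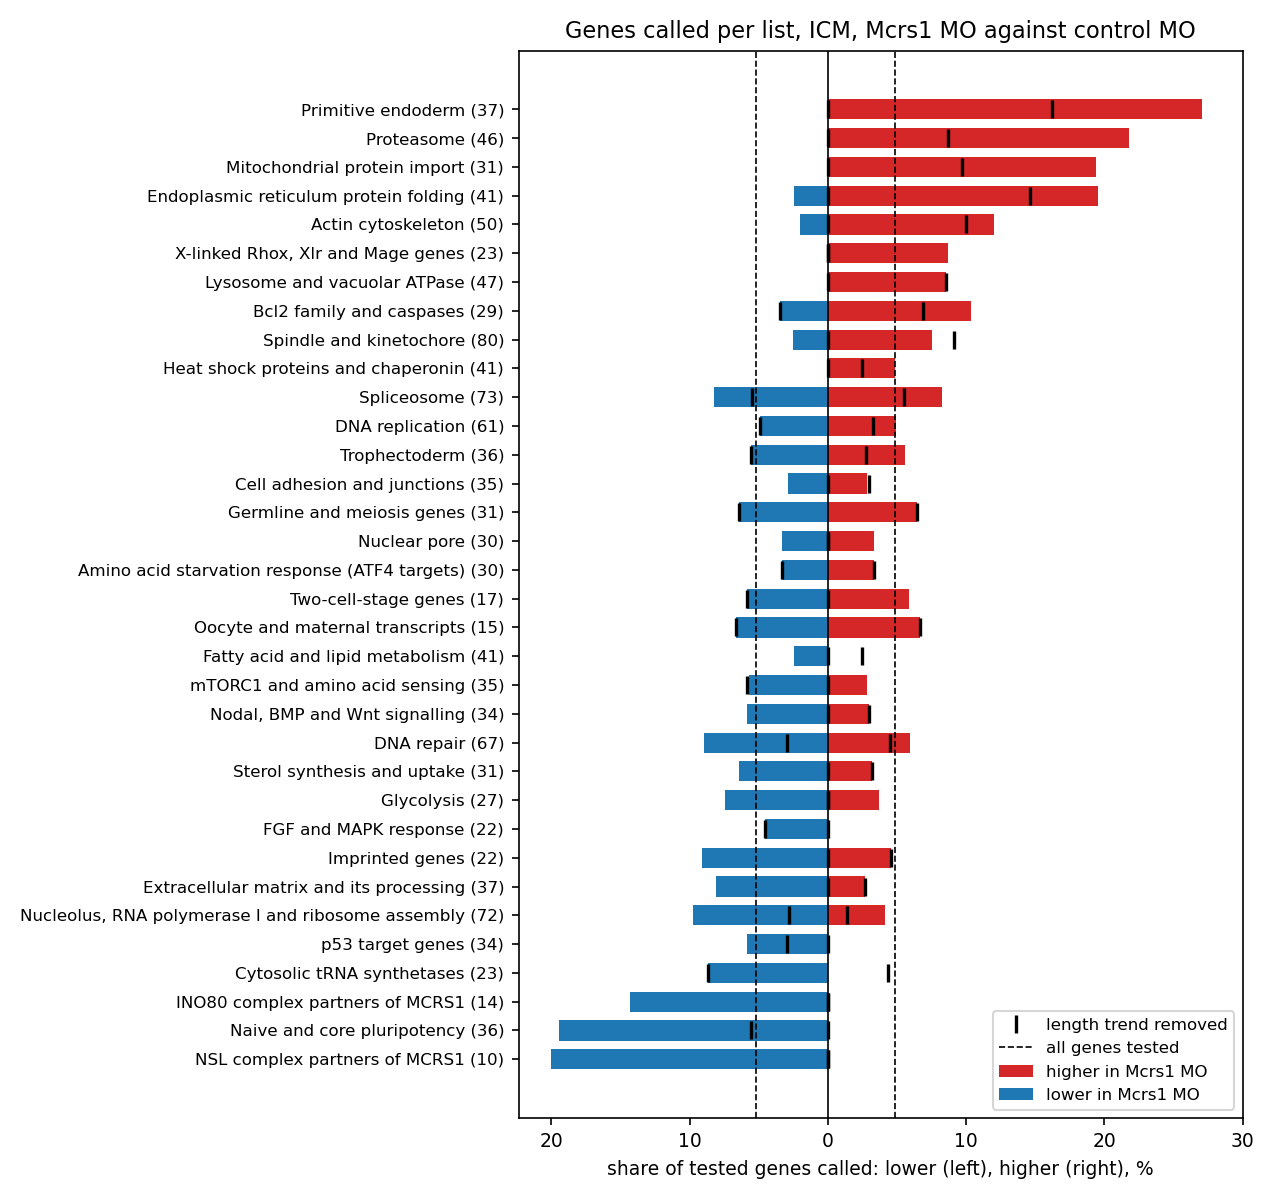
Share of the tested genes of each list that were called higher (red, right) or lower (blue, left) in the Mcrs1 MO ICM, with the number tested in parentheses, for lists of at least 10 tested genes. Dashed lines mark the shares over all genes tested (4.88% and 5.21%), and black ticks the shares with the length trend removed, which lie lower for the primitive endoderm and proteasome lists and reach 0 for the NSL and INO80 lists.

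Of 46 tested proteasome genes 10 rose and none fell (21.7%, beside 4.88% of all genes), with a median difference of 0.66, and in 35 of the 46 both Mcrs1 MO libraries lay above both controls, as in 23.3% of all genes. Psma2, a subunit of the outer ring, was at 279 and 311 TPM in the controls and 828 and 767 TPM after Mcrs1 MO (1.43 ± 0.17, adjusted p = 0.0033). Psma6 and Psmb3 rose by 1.38 ± 0.19 and 1.33 ± 0.21, and Pomp, the gene of the assembly chaperone, rose by 1.12 ± 0.17. Rises numbered 11 without control replicate 1 and 12 without control replicate 2, and 4 and 8 without Mcrs1 MO replicate 1 and 2. In the comparisons of the Max MO ICM, which shares these controls, and of the TE, 15 and 12 of the 46 rose, beside 8.65% and 1.77% of all genes. Of all genes 23.7% were called after Max MO in either direction. These are short transcripts, with a median of 1919 bases, and with the length trend removed 4 of 46 rose, beside 3.35% of all genes, and the median was 0.41.

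The folding machinery of the endoplasmic reticulum (ER) had 8 rises and 1 fall among 41 tested genes (19.5% rose, beside 4.88% of all genes), 6 rises with the length trend removed, and a median difference of 0.42. Manf, a stress-induced ER protein gene, was at 16.7 and 45.0 TPM in the controls and 119 and 137 TPM after Mcrs1 MO (2.18 ± 0.43, adjusted p = 0.013). The lectin chaperone gene Calr, the disulfide isomerase gene Pdia6 and Hsp90b1 rose by 1.35 ± 0.24, 1.28 ± 0.19 and 1.10 ± 0.28. Hyou1, which also encodes an ER chaperone, fell instead, from 20.7 and 12.3 TPM to 0.990 and 3.62 TPM. Rises numbered 10 without control replicate 1 and 8 without control replicate 2, and none and 2 without Mcrs1 MO replicate 1 and 2. Of 30 targets of ATF4, the factor of the amino acid starvation response, 1 rose and 1 fell, and 5 rose and 2 fell without control replicate 1, and 1 rose and 4 fell without control replicate 2, while 1 rose and 1 fell with the length trend removed. In the fit of all libraries 3.33% of the ATF4 targets rose and 3.33% fell, beside 4.88% and 5.21% of all genes. Chac1 was listed at 0 in both controls and at 18.1 and 7.15 TPM after Mcrs1 MO, and Sesn2 fell from 106 and 70.5 TPM to 6.14 and 16.1 TPM. After Max MO, set against the same controls, 8 of the 41 ER genes rose and 7 fell, beside 8.65% and 15.1% of all genes. Manf, Pdia6, Hyou1, Chac1 and Sesn2 were called there too.

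Of 31 genes of mitochondrial protein import 6 rose and none fell (median 0.63; 19.4% rose, beside 4.88% of all genes), among them the small chaperone gene Timm8b (1.55 ± 0.28) and the channel gene Timm22 (1.03 ± 0.29), and 3 rose with the length trend removed. The list had 4 rises and 1 fall without control replicate 1, and 6 rises without control replicate 2, and no call without either Mcrs1 MO library. After Max MO, set against the same controls, 10 of the 31 import genes rose and 1 fell (median 0.81), beside 8.65% and 15.1% of all genes. In the TE comparison 2 rose and none fell (median 0.53), beside 1.77% and 3.31% of all genes. Timm8b was called in both. Of 50 actin cytoskeleton genes 6 rose (12%) and 1 fell, and 5 rose with the length trend removed. These counts followed the controls: 22 rose and 1 fell without control replicate 1, 4 rose and 9 fell without control replicate 2, and the median went from 0.89 to −0.04. Pfn1, the profilin gene, rose from 1681 and 1119 TPM to 3545 and 3060 TPM (1.26 ± 0.20), and S100a11 from 56.9 and 7.06 TPM to 314 and 240 TPM. Of 47 lysosomal genes 4 rose (8.51%, beside 4.88% of all genes) and none fell, with the cathepsin gene Ctsl going from 205 and 206 TPM to 485 and 566 TPM (1.35 ± 0.20). Lysosomal rises numbered 11 without control replicate 1 and 2 without control replicate 2, and 4 with the length trend removed.

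Genes of mitosis, in which MCRS1 has a role, gave 6 rises and 2 falls among 80 tested (7.5% and 2.5%, beside 4.88% and 5.21% of all genes), and 7 rises and no fall with the length trend removed. Birc5, the survivin gene of the chromosomal passenger complex, was at 199 and 205 TPM in the controls and 486 and 574 TPM after Mcrs1 MO (1.38 ± 0.18, adjusted p = 0.0042). The kinetochore genes Ndc80, Spc25 and Cenpo rose by 1.24 ± 0.20, 2.55 ± 0.44 and 2.85 ± 0.62, and Cdc20, the activator of the anaphase-promoting complex, rose by 1.21 ± 0.19. Kif14 and Espl1 (separase) fell by 1.91 and 2.37 on the log2 scale. After Max MO, set against the same controls, 10 of the 80 rose and 14 fell, beside 8.65% and 15.1% of all genes. Birc5, Ndc80, Spc25, Cenpo, Cdc20, Kif14 and Espl1 were all called there too. In the fit of all libraries for Mcrs1 MO, leaving libraries out changed the counts. The list had 10 rises and 6 falls without control replicate 1, where 11.8% of all genes rose and 10.3% fell, and 11 rises and 1 fall without control replicate 2, where 6.24% rose and 5.67% fell. Replication and repair genes moved in both directions, 3 rises and 3 falls of 61 (4.92% each) and 4 rises and 6 falls of 67 (5.97% and 8.96%), beside 4.88% and 5.21% of all genes. With the length trend removed they were 2 and 3 and then 3 and 2. Without control replicate 1 these were 5 and 8 and again 5 and 8, and without control replicate 2 they were 8 and 3 and then 2 and 2. The catalytic polymerase subunit genes Pola1 and Pold1 fell by 2.45 and 2.14, and the mismatch repair gene Msh6 fell by 1.34. Pola1, Pold1 and Msh6 were also called after Max MO.

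Nucleolar genes, for the compartment where MCRS1 is found, had 3 rises and 7 falls among 72 tested (median −0.17; 4.17% and 9.72%, beside 4.88% and 5.21% of all genes), with 1 rise and 2 falls once the length trend was removed. There were 2 rises and 13 falls without control replicate 1, and without control replicate 2, 6 rises and 2 falls, so the balance of this list depended on the control used. Ubtf and Polr1b, which encode a factor and a subunit of RNA polymerase I transcription, fell from 132 and 187 TPM to 47.8 and 63.7 TPM and from 171 and 215 TPM to 51.0 and 87.5 TPM. Their small partner subunit gene Polr1d rose by 1.18 ± 0.22. After Max MO, set against the same controls, 7 of the 72 rose and 15 fell (median −0.25), beside 8.65% and 15.1% of all genes. Ubtf, Polr1b and Polr1d were called there too. In the spliceosome list 6 genes rose and 6 fell of 73 (4 and 8 without control replicate 1, 11 and 3 without control replicate 2, 4 and 4 with the length trend removed), among them a rise of Lsm5 by 1.79 ± 0.30. In the fit of all libraries 8.22% of the spliceosome genes rose and 8.22% fell, beside 4.88% and 5.21% of all genes. Sf3a2 was at 123 and 121 TPM in the controls and 7.43 and 15.9 TPM after Mcrs1 MO (−3.37 ± 0.59), and Ddx23 at 11.2 and 13.0 TPM against 0.994 and 0.026 TPM. After Max MO 12 of the 73 rose and 9 fell, beside 8.65% and 15.1% of all genes. Lsm5, Sf3a2 and Ddx23 were called there too, and Lsm5 and Sf3a2 also in the TE comparison.

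The amino acid signalling list, which holds the mTORC1 pathway, had 1 rise and 2 falls of 35 (2.86% and 5.71%, beside 4.88% and 5.21% of all genes), 3 and 3 without control replicate 1, and 2 and 2 without control replicate 2. Sesn2, a leucine sensor gene that p53 and ATF4 also control, fell by 2.98 ± 0.58 on the log2 scale, and Tsc2, the inhibitor of the mTORC1 activator RHEB, was at 30.5 and 43.5 TPM in the controls and 5.26 and 7.39 TPM after Mcrs1 MO (−2.37 ± 0.44). Lamtor2, a subunit of the complex that holds mTORC1 on the lysosome, rose by 1.06 ± 0.22. After Max MO, set against the same controls, 4 of the 35 rose and 5 fell, beside 8.65% and 15.1% of all genes. Sesn2, Tsc2 and Lamtor2 were called there too, and Tsc2 also in the TE comparison. Of 23 cytosolic tRNA synthetase genes 2 fell and none rose, with no rise and 3 falls without control replicate 1, and 1 rise and 3 falls without control replicate 2. In the fit of all libraries 8.70% of the tRNA synthetase genes fell, beside 5.21% of all genes. Vars was at 146 and 103 TPM in the controls and 21.8 and 19.8 TPM after Mcrs1 MO, and Kars at 806 and 846 TPM against 365 and 383 TPM. Vars, but not Kars, was also called after Max MO and in the TE comparison. Sesn2, Tsc2, Vars and Kars kept their calls with the length trend removed, when the first list had no rise and 2 falls and the second 1 rise and 2 falls (adjusted p from 0.0030 to 0.031).

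In the lists of signalling, matrix, adhesion and metabolism 2.44% to 11.1% of the tested genes were called, beside 10.1% of all genes. Among 34 Nodal, BMP and Wnt genes Dkk1 rose and the TCF genes Tcf7l1 and Tcf7l2 fell (−2.08 ± 0.60 and −2.99 ± 0.78). Of 37 matrix genes Srgn rose, and Fn1 (fibronectin), Lama5 and the integrin gene Itga3 fell by 2.20, 2.03 and 2.64, none of which stayed called with the length trend removed. Leaving out control replicate 1 gave 5 rises and 3 falls in the Nodal, BMP and Wnt list and 2 and 5 in the matrix list, and leaving out control replicate 2 gave 1 and 1, and 5 and none. Of 35 adhesion genes the tight junction gene Cldn6 rose from 64.0 and 35.3 TPM to 495 and 287 TPM (2.96 ± 0.44, adjusted p = 0.0054), and cingulin (Cgn) fell by 1.24. The adhesion list had 10 rises and 1 fall without control replicate 1, and without control replicate 2, 1 rise and 6 falls. With the length trend removed the adhesion list and the Nodal, BMP and Wnt list had 1 rise each and no fall. Of 31 sterol genes 1 rose and 2 fell, with Sc5d, a late enzyme of cholesterol synthesis, going from 10.2 and 13.7 TPM to 50.6 and 26.9 TPM. Of 41 lipid genes only the citrate lyase gene Acly was called (−1.37 ± 0.32), and of 27 glycolysis genes Tpi1 rose and Hk1 and Dlat fell. The sterol, lipid and glycolysis lists had 3, 4 and 5 rises and 3, 3 and 1 falls without control replicate 1. With control replicate 2 left out they had 1, 2 and 2 rises and 1, no and 3 falls. With the length trend removed the sterol and lipid lists had 1 rise each and no fall, and no glycolysis gene was called. The heat shock list had 2 rises and no fall of 41, the Bcl2 and caspase list 3 rises and 1 fall of 29, the p53 target list no rise and 2 falls of 34, the nuclear pore list 1 of each of 30, and the FGF response list 1 fall of 22. These were 4.88%, 13.8%, 5.88%, 6.67% and 4.55% of the tested genes, beside 10.1% of all genes called. In the same order, rises and falls were 3 and 2, 4 and 4, 6 and 4, 1 and 3, and 3 and 1 with control replicate 1 left out, and 5 and none, 2 and none, none and 1, 2 and none, and 1 and 2 with control replicate 2 left out. On the scale with the length trend removed they were 1 and none, 2 and 1, none and 1, none and none, and none and 1.

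Genes of the germ line and of earlier stages gave single large changes. The shares called in their lists lay near those of all genes, 4.88% higher and 5.21% lower. In the germline, oocyte and two-cell lists 6.45%, 6.67% and 5.88% of the tested genes rose, and the same shares fell. Rec8, a meiotic cohesin gene, was at 19.23 and 39.9 TPM in the controls and 0.241 and 0 TPM after Mcrs1 MO (−4.69 ± 0.62, adjusted p = 0.0042). Dazl and Asz1, germ cell genes, rose from 0.153 and 1.52 TPM to 20.05 and 7.81 TPM and from 1.71 and 4.55 TPM to 53.8 and 31.02 TPM. The germline list had 2 rises and 2 falls of 31, 2 and 5 without control replicate 1 and 6 and 1 without control replicate 2. Of 15 oocyte genes 1 rose and 1 fell, with Tle6, a gene of the subcortical maternal complex, at 38.8 and 82.1 TPM in the controls and 6.76 and 12.6 TPM after Mcrs1 MO, and the list had 7 falls without control replicate 1 and none without control replicate 2. Of 17 two-cell-stage genes Arg2 rose and Gm2016 fell, with 2 rises and 1 fall when either control library was left out. With the length trend removed the germline list had 2 rises and 2 falls, the oocyte list 1 of each and the two-cell list 1 fall. Cumulus cell genes were low in all 4 libraries (9.28 to 21.9 TPM summed over the list, 3 genes tested, none called).

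Among the genes met by the naming rule, those with non-overlapping libraries and at least 5 TPM in the higher group, the 12 largest rises were Dkk1, Srgn, Flrt3, Sox17, Pon2, Maged2, Rpusd1, Panx1, Rhpn1, F2r, 1700080O16Rik and Sgce. Maged2, Panx1, Rhpn1, F2r and 1700080O16Rik were listed at 0 in both controls, as was Dkk1. Panx1, a channel gene, was at 23.8 and 20.3 TPM after Mcrs1 MO (adjusted p = 0.0023) and F2r, the thrombin receptor gene, at 13.2 and 28.7 TPM (adjusted p = 0.0054). Sgce, a sarcoglycan gene that is imprinted and expressed from the paternal allele, was at 0 and 0.090 TPM in the controls and 20.9 and 16.2 TPM after Mcrs1 MO (4.21 ± 0.58, adjusted p = 0.0044). Flrt3, an adhesion gene, was at 4.93 and 0.142 TPM in the controls and 73.1 and 134 TPM after Mcrs1 MO, and Pon2, a paraoxonase gene, at 16.96 and 0.305 TPM against 152 and 120 TPM. Flrt3 was not called without control replicate 2 (adjusted p = 0.104), without Mcrs1 MO replicate 1 or 2 (0.131 and 0.152) or with a pseudocount of 0.1 (0.113). Pon2 kept its call without either control library, but its difference went from 6.70 without control replicate 1 to 2.92 without control replicate 2, and it was not called without Mcrs1 MO replicate 1 or 2 (adjusted p = 0.0805 and 0.0531).

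Among the 12 largest falls were Rec8, Tpst1, Dhx37, Lzts2, 4933407K13Rik, Wdr6, Gm20199, Oasl2, Bhmt, Sf3a2 and Hacl1. Bhmt was the most abundant, at 1454 and 2900 TPM in the controls and 339 and 108 TPM after Mcrs1 MO (−3.42 ± 0.79, adjusted p = 0.023). It encodes betaine-homocysteine methyltransferase, which makes methionine from betaine and supplies methyl groups. Tpst1 (tyrosylprotein sulfotransferase) was at 18.9 and 29.3 TPM against 0.066 and 0.891 TPM, Dhx37 (a helicase of ribosome assembly) at 46.7 and 11.8 TPM against 0.269 and 1.07 TPM, and Wdr6 (a tRNA methylation factor) at 58.4 and 53.5 TPM against 2.53 and 5.21 TPM. Oasl2, an interferon-induced gene, was at 21.2 and 27.1 TPM against 2.04 and 0.723 TPM.

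**Figure D5:**
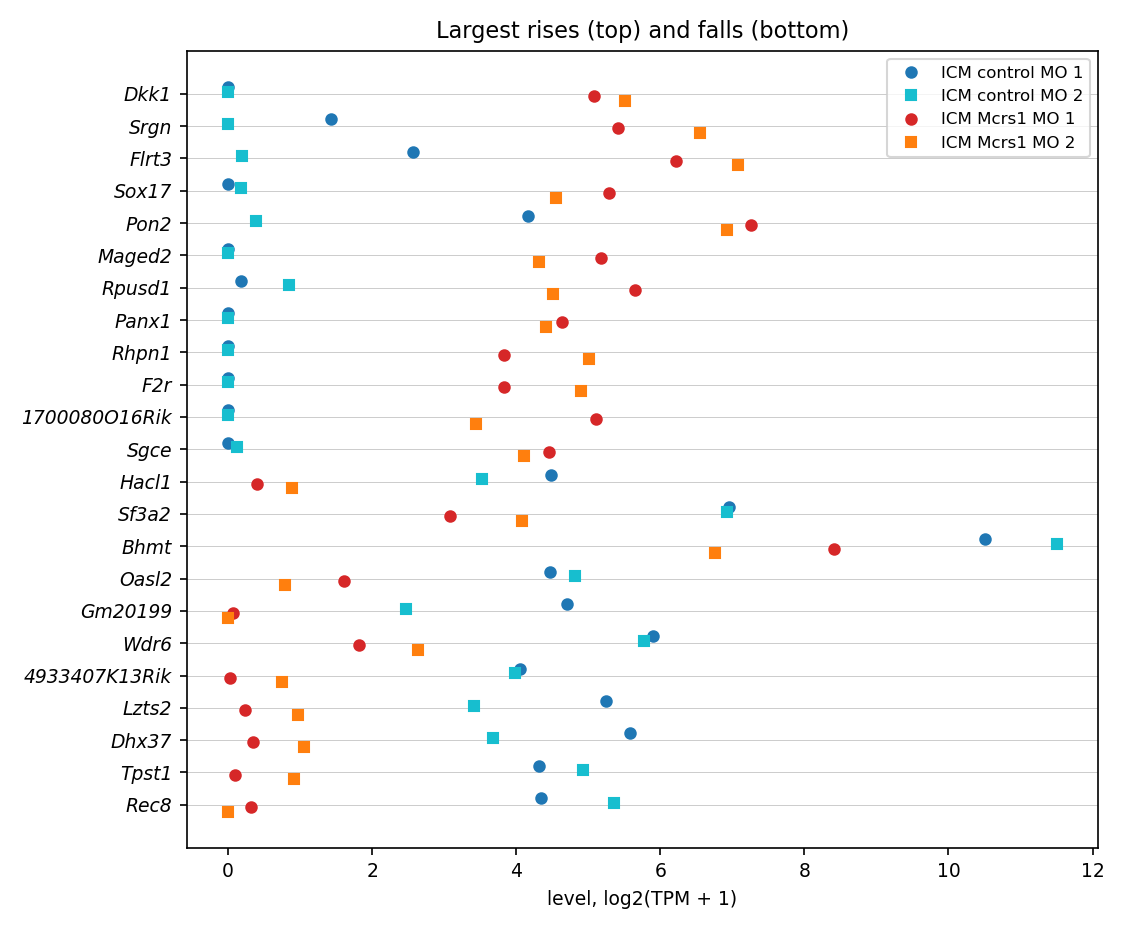
Levels, as log2(TPM + 1), of the 12 genes with the largest rises (top) and of 11 of those with the largest falls (bottom) in the 2 control MO (blue) and 2 Mcrs1 MO (red, orange) ICM libraries. The groups do not overlap for any of these genes, which the naming rule required, and Bhmt is the most abundant of them.

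Whether the ICM response differed from that of the TE was tested by an interaction term. No gene passed in limma, with 972 genes at an unadjusted p under 0.05 and a smallest adjusted p of 0.28, and this was also the smallest among the 24 genes that the naming rule gave. The count was 830 without control replicate 1 and 7 without control replicate 2. Of these 24 genes, 19 had a difference of the same sign in the TE and 3 were called there, beside 5.08% of all genes (1.77% higher and 3.31% lower). The median difference in the TE was 0.09 for the pluripotency list and −0.60 for the TE list. In the ICM these medians were −0.85 and 1.13, and the differences were not tested as lists. In the TE comparison 3 of the 36 pluripotency genes rose and 4 fell, beside 1.77% and 3.31% of all genes. Tbx3, Tfcp2l1, Sall4 and Jarid2 were among those called. Of the 36 genes of the TE list none rose and 2 fell there. Klf2 was at 1.30 and 2.35 TPM in the control TE and 5.21 and 2.74 TPM in TE with Mcrs1 MO, and Sox17 was at 0 in both control TE libraries and at 10.1 and 0.977 TPM in TE with Mcrs1 MO.

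Against the Max MO ICM, which does not share the libraries of the control group, 168 genes were higher (1.5%) and 35 lower (0.312%), or 1.81% in all, in the Mcrs1 MO ICM. Without Mcrs1 MO replicate 1 none was called, and without replicate 2, 2 were, while 842 and 843 were called without control replicate 1 and 2, which enter only through the shared spread. Cldn6 was at 495 and 287 TPM after Mcrs1 MO and 24.5 and 54.4 TPM after Max MO (difference 3.33, adjusted p = 0.016). The imprinted gene Mest was at 22.7 and 31.1 TPM against 1.38 and 3.33 TPM (3.10, adjusted p = 0.016), and the glucose transporter gene Slc2a3 at 268 and 198 TPM against 38.1 and 35.5 TPM (2.61, adjusted p = 0.037). The summed TE markers were 15847 and 10881 TPM in these Mcrs1 MO libraries and 4304 and 8234 TPM in the Max MO libraries, and their part in the difference was not tested. Sox17 was at 178 and 32.5 TPM and Gata4 at 26.1 and 2.52 TPM in ICM with Max MO, Dkk1 was at 86.5 and 12.7 TPM and Mir17hg at 2.70 and 2.82 TPM, values set beside those after Mcrs1 MO with the same controls.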

How the data were processed

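Per the submitters' notes and the study's methods, the authors used Cutadapt 1.16 for trimming, HISAT2 for alignment to mm10 and StringTie for gene levels. Each deposited table gives coverage, FPKM and TPM. The TPM of the assembled loci sums to 1000000 in each library and the 24421 annotated genes stand beside them, so the column was read as TPM on that scale. The deposited coverage signal and FPKM were used only for depth. No counts were used here, so no count test or counting interval is given. TPM was summed per gene symbol. The 11219 genes whose TPM averaged 1 or more over the 12 libraries were fitted as log2(TPM + 1) with limma 3.58.1 (trend, 6 groups) in R 4.3.3, tested on simulated data, with Benjamini-Hochberg adjustment. Fold changes on this scale understate low genes. A value of 0 may be a missed gene. Transcript lengths came from GENCODE vM21 and the trend from lowess (span 0.3). Figures used Python 3.11.15 and matplotlib 3.10.9.

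Named genes were Mcrs1, the 12 largest rises and falls among called genes without overlap and with at least 5 TPM in the higher group (microRNA, snoRNA and rRNA loci left out), 12 lineage genes, complex partners and called list members. The comparison, the 36 lists and the markers were chosen with earlier results of these data known. Groups came from the labels, and no 2 of the 4 libraries held identical values. The other 56 tables were not used here. A few genes that the rule gave are not reported here. Alternatives were another pseudocount, other filters, rescaled or quantile-normalized TPM, fewer libraries, single libraries left out, a replicate block, the largest row per gene and a length correction.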

Additional observations from a re-analysis of the deposited data

How the results depend on the processing

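The number of genes called between Mcrs1 MO and control MO in the ICM was 1131, and it was 721 with all genes above 0, 638 with the length trend removed, 1 in the fit of the ICM libraries alone and 0 in that of the 4 libraries, where fewer libraries estimate the spread. With single libraries left out it ran from 87 to 2481. It moved by less than 1.5 times with a pseudocount of 0.1, a mean TPM of at least 5, rescaling, quantile normalization, the replicate block and the largest row per gene. Rescaling over annotated genes shifted the median gene to −0.15 and gave 436 higher and 698 lower. The ICM and TE responses differed for 1 gene with a pseudocount of 0.1 and 24 with all genes above 0, and for 0 to 830 with single libraries left out. Mcrs1 MO against Max MO gave 203 calls, 121 with all genes above 0, 23 with quantile normalization, 0 in the ICM libraries alone and 0 to 843 with single libraries left out. The cause of these changes was not tested. Of 46 called genes, 40 had a value with a mean TPM of at least 5 and 45 with the length trend removed. None changed direction where a value was had, which was largely fixed in advance. The fits of fewer groups, with other filters and with the replicate block keep the same differences of group means. Genes chosen for libraries that do not overlap cannot reverse when a library is left out. Every one of the 46 lost its call in the fits of the ICM libraries alone and of the 4 libraries.

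Same-numbered libraries are not stated to share embryos, and their deviations correlated at 0.057 over 2 pairs. With the replicate block 1051 genes were called, 0 differed between ICM and TE and 160 differed from Max MO. Without counts, the depth behind a single low value is unknown.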

Other observations

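Beyond the lists above, the X-linked Rhox, Xlr and Mage genes include germline and placental families. They had 2 rises and no fall among 23 tested (median 0.61), so 8.70% rose, beside 4.88% of all genes. Rhox1 was at 0 and 0.935 TPM in ICM with control MO and 4.76 and 4.61 TPM in ICM with Mcrs1 MO. Xlr5c was at 6.84 and 7.64 TPM against 28.0 and 18.2 TPM. Neither was called with the length trend removed. No gene of the list was called with a pseudocount of 0.1, with rescaling or with the replicate block, while 3 rose after quantile normalization. The list had 4 rises and 1 fall without control replicate 1, and 2 rises without control replicate 2. Among 22 tested imprinted genes Sgce rose and Zrsr1 and Xist fell, with Zrsr1 at 21.0 and 11.7 TPM in the controls and 0.961 and 2.09 TPM after Mcrs1 MO, and the list had 1 rise and 2 falls without control replicate 1 and 1 rise and 3 falls without control replicate 2. Xist had the same direction in the Max MO libraries and in the TE, and with the length trend removed its difference of −1.57 was not called. On that scale 1 imprinted gene rose and none fell. In the fit of all libraries 4.55% of the imprinted genes rose and 9.09% fell, beside 4.88% and 5.21% of all genes. Of 4 Y-linked genes only Eif2s3y was called (2 without control replicate 1, 1 without control replicate 2, 1 with the length trend removed), while Ddx3y was at 79.3 and 15.7 TPM in the controls and 45.3 and 63.4 TPM after Mcrs1 MO.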
